A study of Mus musculus with 27 samples.

Results

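The immediate early genes described here are 10 genes of the ileal epithelium, *Fos*, *Fosb*, *Jun*, *Junb*, *Egr1*, *Ier2*, *Atf3*, *Nr4a1*, *Dusp1* and *Zfp36*. They were taken by name from the 46078 genes counted in each mouse, by a rule that uses no measured value. Earlier results of these data were known when the genes were chosen. Of the 16741 genes with enough reads to be tested, all 10 were among them. RNA-Seq was run on epithelial scrapings of distal ileum from 27 male C57BL/6 mice, 3 in each of 9 groups. The groups received sesame oil vehicle or TCDD at 0.01 or 0.03 µg/kg, 0.1 or 0.3 µg/kg, 1 or 3 µg/kg, or 10 or 30 µg/kg. TCDD is a persistent ligand of the aryl hydrocarbon receptor (AhR), and it was given by gavage every 4 d for 28 d. Dosing began on postnatal day 28, tissue was taken on postnatal day 56, and every mouse was fasted for 6 h beforehand. The mice were co-housed and the labels do not give their cages, so an effect of cage cannot be told apart from dose.

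Immediate early genes are transcribed within minutes of a growth factor, stress or neural signal, from promoters already bound by factors such as SRF and CREB, and without new protein synthesis. *Fos*, *Fosb*, *Jun* and *Junb* encode subunits of the dimeric transcription factor AP-1. *Egr1*, *Atf3* and *Nr4a1* encode a zinc finger factor, a bZIP factor of the ATF/CREB family and an orphan nuclear receptor, and *Ier2* encodes a small nuclear protein. *Dusp1*, a phosphatase that inactivates MAP kinases, and *Zfp36*, a protein that binds AU-rich elements and speeds mRNA decay, limit the response. Their transcripts are short-lived and also respond to handling and dissection of tissue. The RNA of a scraping therefore gives their level at the moment of collection.

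The libraries held 12.26 to 17.14 M reads counted on genes. *Cyp1a1*, the AhR target that checks the dose labels, averaged 0.117 CPM (counts scaled to library size) in vehicle mice, against 1740 CPM in the 30 µg/kg group. Epithelial markers (*Vil1*, *Epcam*, *Cdh1*, *Krt20* and *Fabp2*) summed to 5950 to 11800 CPM per mouse. In these bulk samples, fewer cells of a type and less RNA per cell cannot be told apart. Library indices were used more than once, and the uses were numbered here in order of mouse number, which rose with dose. The first use covered 16 mice, among them all vehicle mice, and the second use covered 11 mice, among them every mouse at 3, 10 and 30 µg/kg, so that only 1 µg/kg held mice of both. Mouse 14 at 0.01 µg/kg stood apart from its group by clock genes and mouse 65 at 30 µg/kg by villus tip markers. By counts, no mouse differed more from the others of its dose than mouse 65. An effect of index use cannot be told apart from the high doses against vehicle. In fits of the dose groups with index use added, its size is set only by mouse 41 against mice 43 and 44 at 1 µg/kg.

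The level of the genes in vehicle mice was compared per kilobase of exon, since the transcripts differ in length. All annotated exons of a gene were joined, so this length can exceed that of the transcript made, and the order depends on it. In CPM, without length, *Zfp36* averaged 196.8 and *Jun* 183.6. *Jun* was the most abundant at a mean of 57.6 CPM per kb, followed by *Zfp36* at 56.7, *Fos* at 52.4 and *Junb* at 45.1. The vehicle mice of these genes overlapped, at 39.6 to 74.1 CPM per kb, and their order is not resolved. *Atf3* averaged 20.1 and *Ier2* 16.9 CPM per kb, again with overlapping mice. *Egr1* averaged 6.02, *Dusp1* 3.06, *Nr4a1* 0.839 and *Fosb* 0.447 CPM per kb, and the vehicle mice of each stood below those of the gene before. *Fosb* had only 8 to 51 reads and *Nr4a1* 14 to 59 reads in a mouse, so counting error adds to their spread, whereas the other 8 genes had at least 75 reads in every mouse.

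*Egr1* was 2.28-fold lower at 30 µg/kg TCDD than in vehicle mice, and no other member of the group passed the test at any dose. A gene was called where its adjusted p did not exceed 0.05 and it changed 1.5-fold or more (edgeR quasi-likelihood test, Benjamini-Hochberg adjustment over all genes tested). At that dose 1 of the 10 genes was called, against 9.4% of all genes tested in either direction and 3.98% downward. From 0.01 to 0.3 µg/kg 0 of 10 were called, as were 0% of all genes. At 1, 3 and 10 µg/kg 0 of 10 were called, against 0.591%, 1.11% and 2.53% of all genes. DESeq2 called *Egr1* at 3 and 30 µg/kg and none of the 10 at the other 6 doses.

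With no adjustment, edgeR gave p under 0.05 for 0 of 10 genes at 0.01 µg/kg (4.18% of all genes), for *Ier2* at 0.03 µg/kg (3.53%) and for 0 at 0.1 µg/kg (6.19%). The count was 3 at 0.3 µg/kg (*Jun*, *Egr1* and *Atf3*, against 7.45% of all genes). It was 4 at 1 µg/kg (*Fosb*, *Jun*, *Egr1* and *Atf3*, against 14.1%) and 3 at 3 µg/kg (*Egr1*, *Ier2* and *Atf3*, against 13.7%). None of the 10 reached this level at 10 µg/kg, where 17.4% of all genes did. There were 4 at 30 µg/kg, namely *Egr1*, *Ier2*, *Atf3* and *Nr4a1*, against 31.2% of all genes. All 8 comparisons used the same 3 vehicle mice, so they are not independent of each other.

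*Egr1* (chr18:34859823-34864984, plus strand, GRCm38, GENCODE M21) measured 33.2, 22.3 and 25.5 CPM in the vehicle mice. In the 30 µg/kg group it measured 14.0, 12.4 and 9.12 CPM. All 3 treated mice lay below all 3 vehicle mice, and the highest treated mouse was well under the lowest vehicle mouse. The log2 fold change was -1.19 ± 0.29 (SE, 95% interval -1.76 to -0.61) with an edgeR adjusted p of 0.00721. The vehicle mean was 27.0 ± 5.58 CPM, and the mean at 30 µg/kg was 11.8 ± 2.47 CPM (SD, n = 3 each).

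The course of *Egr1* over dose was not steady. At 0.01 µg/kg the mice measured 46.6, 16.4 and 25.5 CPM, a range that enclosed all vehicle mice and held the highest value of the study. At 3 µg/kg they measured 12.7, 14.97 and 13.4 CPM, again below every vehicle mouse, with a log2 fold change of -0.98 ± 0.29 (SE) and an adjusted p of 0.096. At 10 µg/kg the values were 19.5, 19.5 and 24.8 CPM, which overlapped vehicle. The difference of 30 from 10 µg/kg, all mice of the second index use, was -0.84 ± 0.30 on the log2 scale with an edgeR adjusted p of 0.216. From 3 µg/kg, in the same index use, it was -0.21 ± 0.30 (adjusted p = 0.815).

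The call of *Egr1* at 30 µg/kg was kept when any 1 of the 6 mice was left out, at log2 fold changes of -1.36 to -1.02. It was lost when index use was added to the fit (-1.87, adjusted p = 0.0551) and when a clock score was added (-0.63, adjusted p = 0.748).

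*Egr1* was also the only one of the 10 genes that differed among the 9 groups (edgeR F test, adjusted p = 0.0278, against 9.53% of all genes tested). That count rose to 2 for *Egr1* and *Atf3* without vehicle mouse 03 or mouse 57 at 10 µg/kg, and to 2 for *Egr1* and *Dusp1* without mouse 33 at 0.3 µg/kg. It rose to 4 without mouse 65 at 30 µg/kg, for *Jun*, *Junb*, *Egr1* and *Ier2*. It was 0 without vehicle mouse 02, vehicle mouse 04, mouse 50 at 3 µg/kg or mouse 67 at 30 µg/kg, and also with index use or the clock score in the fit. Without mouse 68 at 30 µg/kg the count was again 1, but the gene was *Atf3* and not *Egr1*.

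A slope over the rank of the dose, from vehicle to 30 µg/kg, passed the edgeR test for 2 of the 10 genes, *Egr1* and *Nr4a1*, both downward. Of all genes tested 26.2% had such a slope in either direction and 12.8% had one downward. *Egr1* fell by 0.12 ± 0.029 (SE) on the log2 scale per rank (adjusted p = 0.00268) and *Nr4a1* by 0.12 ± 0.034 (adjusted p = 0.00876). Within the first index use, which reaches only 1 µg/kg, the slopes were -0.243 for *Egr1* (adjusted p = 0.0701) and -0.208 for *Nr4a1* (adjusted p = 0.212). Within the second they were -0.113 (adjusted p = 0.723) and -0.296 (adjusted p = 0.273), so neither gene passed within either set of mice. Over all groups both slopes kept passing when any 1 of the 27 mice was left out. With index use in the fit the slope of *Egr1* passed and that of *Nr4a1* did not, and with the clock score neither passed.

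**Figure D1:**
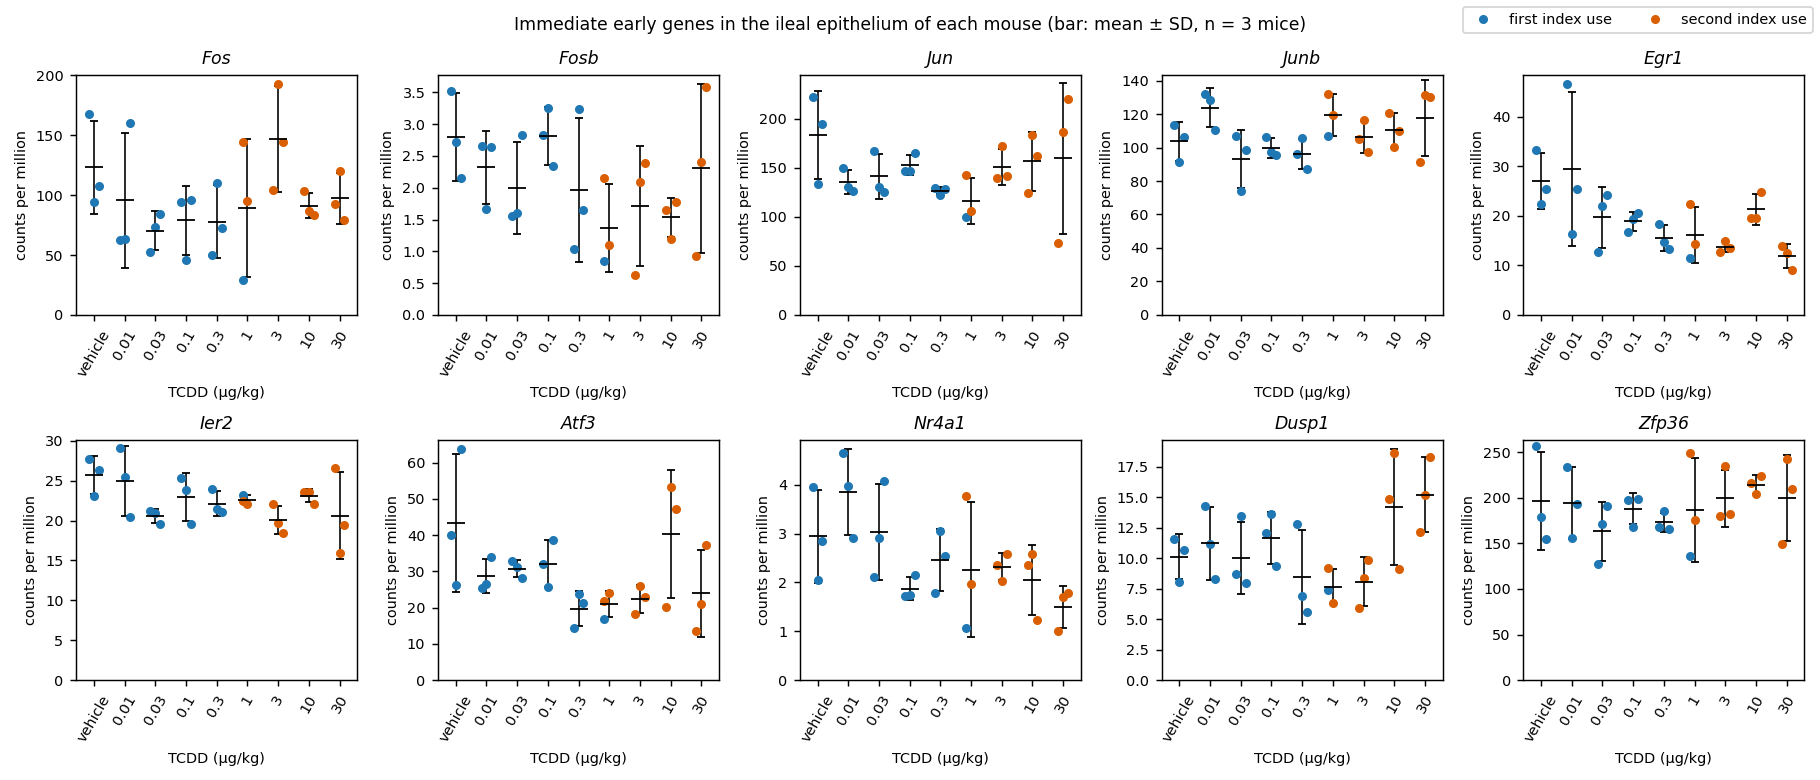
Level of each of the 10 genes in each of the 27 mice, in CPM on a linear axis from 0, against TCDD dose on an ordered axis. Points are mice, coloured by first or second use of the library index, and bars give the mean ± SD of 3 mice. *Egr1* sits at 9.12 to 14.0 CPM at 30 µg/kg, below the 22.3 to 33.2 CPM of vehicle, while most other genes overlap vehicle at most doses.

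*Nr4a1* (chr15:101254269-101274795) measured 3.94, 2.05 and 2.84 CPM in vehicle mice, against 1.00, 1.70 and 1.79 CPM at 30 µg/kg. The 2 groups did not overlap, but the treated mice rested on only 14, 22 and 22 reads. The log2 fold change was -0.98 ± 0.38 (SE, 95% interval -1.73 to -0.23) and did not pass the edgeR test (adjusted p = 0.0786). It passed without vehicle mouse 03 (-1.21, adjusted p = 0.0468), the vehicle mouse with the lowest *Nr4a1*, and with index use in the fit (-2.38, adjusted p = 0.0422), where *Egr1* did not, and it became 0.05 with the clock score in the fit.

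*Atf3* measured 40.1, 26.1 and 63.7 CPM in vehicle mice, the widest vehicle range of the 10 genes in relative terms. The 30 µg/kg mice measured 13.6, 21.0 and 37.2 CPM, which overlapped vehicle, and the log2 fold change was -0.86 ± 0.33 (SE, edgeR adjusted p = 0.0747). Its estimates were farther from 0 at 3 lower doses, with -1.14 ± 0.33 at 0.3 µg/kg, -1.05 ± 0.33 at 1 µg/kg and -0.95 ± 0.33 at 3 µg/kg. At these 3 doses every treated mouse, at 14.3 to 26.09 CPM, lay below every vehicle mouse, but the adjusted p-values were 0.364, 0.141 and 0.166. At 3 µg/kg the highest treated mouse, 26.09 CPM, and the lowest vehicle mouse, 26.11 CPM, all but touched. *Atf3* at 30 µg/kg passed the edgeR test without vehicle mouse 03 (-1.15, adjusted p = 0.0247) or without mouse 68 (-1.33, adjusted p = 0.0164), and it was -0.47 without vehicle mouse 04.

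*Ier2* was among the least variable of the genes, at 15.9 to 29.2 CPM over all 27 mice. It measured 27.7, 23.1 and 26.4 CPM in vehicle mice, against 26.57, 15.9 and 19.4 CPM at 30 µg/kg, where mouse 65 stood within the vehicle range and the other 2 below it. The log2 fold change of -0.32 ± 0.14 (SE) did not pass the edgeR test (adjusted p = 0.129). Without mouse 65 it was -0.57 with an adjusted p of 0.00232, under the minimum fold and so not called, and without mouse 67 it was -0.16. All mice at 0.03 and 3 µg/kg lay below vehicle, at log2 fold changes of -0.32 and -0.36.

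The AP-1 subunits showed no call at any dose. *Fos* measured 168, 94.5 and 108 CPM in vehicle mice, against 92.5, 120 and 79.1 CPM at 30 µg/kg, which overlapped. The log2 fold change at 30 µg/kg was -0.34 with a 95% interval of -1.18 to 0.49, which includes falls of more than 1 log2 unit as well as rises. Without vehicle mouse 02 it was -0.06. With index use in the fit it was -2.39 (edgeR adjusted p = 0.0568). That adjustment rests on mouse 41 against mice 43 and 44 at 1 µg/kg (28.9 against 144 and 94.95 CPM). Its largest difference was -0.81 ± 0.43 (SE) at 0.03 µg/kg, where the mice measured 52.7, 73.4 and 84.7 CPM, all below vehicle (edgeR adjusted p = 1.0). *Fos* spanned 6.675-fold over all mice, from 28.9 CPM in mouse 41 at 1 µg/kg to 193 CPM in mouse 51 at 3 µg/kg, and the same 1 µg/kg group also held 144 CPM.

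*Fosb* ranged from 0.629 to 3.58 CPM. Its largest difference was -1.06 ± 0.47 (SE) at 1 µg/kg on the log2 scale (edgeR adjusted p = 0.308), where the mice measured 0.844, 2.15 and 1.10 CPM against 3.52, 2.71 and 2.15 CPM in vehicle mice. The 30 µg/kg mice measured 0.931, 2.40 and 3.58 CPM, a group that held both values below and above all vehicle mice.

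*Jun* measured 222, 134 and 195 CPM in vehicle mice, against 73.2, 187 and 220 CPM at 30 µg/kg. Mouse 65 had the lowest *Jun* of the study and the other 2 treated mice were within the vehicle range, so the log2 fold change of -0.20 ± 0.25 (SE) became 0.12 without that mouse. *Jun* was lowest relative to vehicle at 1 µg/kg (-0.66 ± 0.25, adjusted p = 0.227), and at 0.3 µg/kg all 3 mice, at 123 to 129 CPM, stood below vehicle. *Junb* kept within 73.8 to 132 CPM, and its 95% interval at 30 µg/kg, -0.09 to 0.45 on the log2 scale, left room for a 1.5-fold change in neither direction.

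Neither of the genes that limit the response was called at any dose. *Dusp1* (chr17:26505590-26562128) measured 11.6, 8.07 and 10.7 CPM in vehicle mice, against 12.2, 15.2 and 18.3 CPM at 30 µg/kg. It was the only one of the 10 genes with all treated mice above all vehicle mice at that dose, an arrangement shown by 13.7% of all genes tested. The log2 fold change of 0.59 ± 0.29 (SE) did not pass the edgeR test (adjusted p = 0.175). Against the mice at 3 µg/kg, at 5.90, 8.39 and 9.89 CPM, the difference at 30 µg/kg was 0.91 ± 0.30 (adjusted p = 0.143), and against those at 10 µg/kg it was 0.09 ± 0.29 (adjusted p = 0.929). *Zfp36* measured 257, 179 and 154 CPM in vehicle mice, against 149, 242 and 210 CPM at 30 µg/kg, and its log2 fold change of 0.02 had a 95% interval of -0.38 to 0.43.

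Direction was counted over the 10 genes as a description. The number with a negative log2 fold change was 6, 9, 8, 10, 9, 7, 7 and 7 in order of rising dose. The median over the 10 genes was -0.03, -0.35, -0.21, -0.39, -0.44, -0.33, -0.19 and -0.30, while the median over all genes tested stayed between -0.003 and 0.019. The fold changes of the 10 genes share the vehicle mice, of which mouse 02 had high values of most members.

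Placed against the vehicle mice, 0 of the 10 genes at 0.01 µg/kg had all treated mice below all vehicle mice, against 5.54% of all genes. There were 2 at 0.03 µg/kg (*Fos* and *Ier2*, against 5.55%) and 1 at 0.1 µg/kg (*Egr1*, against 6.68%). There were 3 at 0.3 µg/kg (*Jun*, *Egr1* and *Atf3*, against 8.49%), 1 at 1 µg/kg (*Atf3*, against 10.2%) and 3 at 3 µg/kg (*Egr1*, *Ier2* and *Atf3*, against 12.1%). At 10 µg/kg there was 1 (*Fosb*, against 11.8%) and at 30 µg/kg there were 2 (*Egr1* and *Nr4a1*, against 13.3%). At most 3 genes of 10 were involved at any dose.

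**Figure D2:**
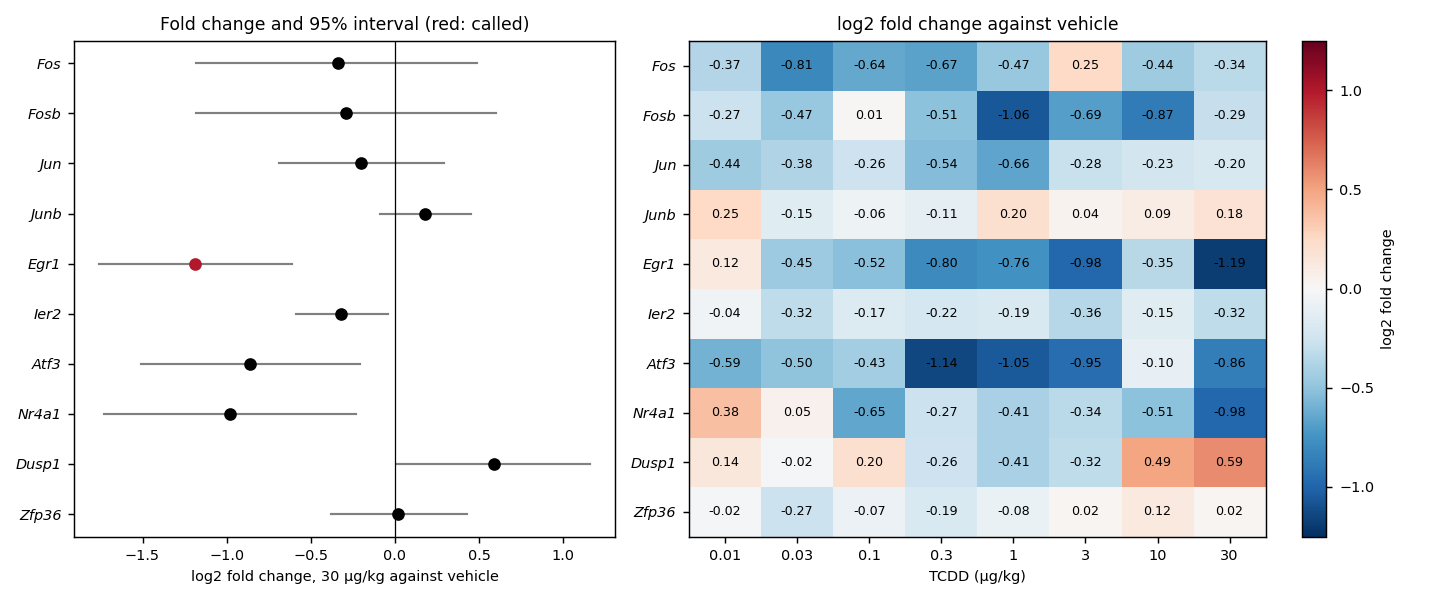
Left, log2 fold change of each gene at 30 µg/kg against vehicle with its 95% interval, with the called gene in red. Right, log2 fold change of each gene at each dose, as printed in the cells and by colour. *Egr1* at -1.19 is the only call, *Dusp1* has the largest positive value at 0.59, and *Atf3* is at -1.14 at 0.3 µg/kg.

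The spread among mice of the same dose was wide for most of the 10 genes. The biological coefficient of variation, edgeR's estimate of the spread between mice beyond counting error, was 35.9% for *Fos* and 35.4% for *Fosb*, against a median of 13.8% over all genes tested. *Fos* exceeded 92.9% of genes. *Atf3* (27.8%), *Nr4a1* (27.1%), *Dusp1* (24.4%), *Egr1* (24.1%), *Jun* (21.4%) and *Zfp36* (18.1%) were also above that median. *Junb* (12.2%) and *Ier2* (11.6%) were below it. The edgeR trend over all genes at the same abundance was 25.3% for *Fosb* and 24.1% for *Nr4a1*, against 12.1% to 16.2% for the other 8 genes.

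Single mice were high or low for many of the genes at once. Vehicle mouse 02 was the highest of its 3 for 9 of the 10 genes and vehicle mouse 03 the lowest for 8, with mean deviations from the group mean of 0.277 and -0.284 on the log2 scale. At 1 µg/kg mouse 41 was the lowest for 8 genes (-0.417) and mouse 43 the highest for 8 (0.433). At 30 µg/kg mouse 65 was the lowest for 7 genes (-0.36), although its *Egr1* and *Ier2* were the highest of that dose.

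Over the 27 mice, with each value taken relative to its dose mean, the 45 pairs of genes had a median Pearson correlation of 0.24. It was above 0 in 35 pairs and at least 0.5 in 10. The highest values were 0.68 for *Jun* with *Atf3* and 0.65 for *Zfp36* with each of *Egr1*, *Nr4a1* and *Fosb*, followed by 0.64 for *Zfp36* with *Fos*. *Ier2* had negative values with 7 of the 9 others, at -0.45 with *Fosb*, -0.36 with both *Fos* and *Jun*, -0.35 with *Atf3* and -0.27 to -0.10 with *Zfp36*, *Junb* and *Nr4a1*, and positive values with *Dusp1* (0.26) and *Egr1* (0.19). Within the first index use its values with *Fosb* and *Jun* were 0.12 and 0.42, and within the second they were -0.63 and -0.64. Ranked among all 16740 other genes by likeness, the nearest of the 10 was 25th for *Egr1* (*Zfp36*) and 36th for *Atf3* (*Jun*). It was 41st for *Fosb*, 43rd for *Fos*, 53rd for *Nr4a1* and 99th for *Zfp36*. For the remaining genes it was farther off, at 340th for *Junb*, 494th for *Jun*, 997th for *Dusp1* and 3629th for *Ier2*. The pairs share libraries and depth, and these correlations are descriptions of 27 mice.

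Some cell type markers varied among the mice along with the 10 genes, and so did lists of other kinds. The mean deviation of the 10 genes correlated over 27 mice (Pearson) at 0.48 with the summed villus tip markers (*Ada*, *Nt5e*, *Slc28a2* and *Creb3l3*), at 0.50 with the epithelial markers and at -0.53 with the crypt base markers (*Lgr5*, *Olfm4*, *Smoc2* and *Ascl2*). The Spearman values were 0.51, 0.53 and -0.37. Lists that mark no cell type had Pearson values of similar size. These were 0.50 for AhR targets such as *Cyp1a1*, 0.46 for upstream regulators and 0.60 for other early response genes, the last 2 described below. A list value does not hold for each gene in it. Single genes ran from -0.51 to 0.44 among AhR targets, from -0.35 to 0.75 among upstream regulators and from -0.39 to 0.74 among early response genes. They ran from 0.33 to 0.52 among villus tip markers, from 0.23 to 0.73 among epithelial markers and from -0.56 to 0.08 among crypt base markers. Villus tip markers summed to 376 to 515 CPM in the vehicle group, against 91 to 809 CPM in the 30 µg/kg group, and 0 of 4 were called. Mouse 65 had the 91 CPM, against 809 and 474 CPM in the other 2 mice of its dose. Its 6 smooth muscle markers summed to 345 CPM against 78.6 and 36.2 CPM, and 0 of 6 were called at 30 µg/kg. Crypt base markers summed to 107 to 163 CPM in the vehicle group, against 40.1 to 105 CPM in the 30 µg/kg group, with 1 of 4 called lower (*Lgr5*). Markers of cycling cells (r = -0.42, Spearman -0.28) summed to 321 to 447 CPM in the vehicle group, against 181 to 378 CPM in the 30 µg/kg group, with 2 of 3 called lower. Among all genes tested, 9.4% were called at that dose in either direction and 3.98% lower. Of the ileal markers (r = -0.01), which summed to 1910 to 2230 CPM against 1210 to 1860 CPM, *Fgf15* (log2 fold change -3.24) and *Fabp6* (-0.94) were called lower and *Slc10a2* (0.75) higher. The part of these markers in the levels of the 10 genes was not tested. Without mouse 65 the log2 fold change of *Egr1* at 30 µg/kg was -1.36 and that of *Fosb* was 0.07.

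**Figure D3:**
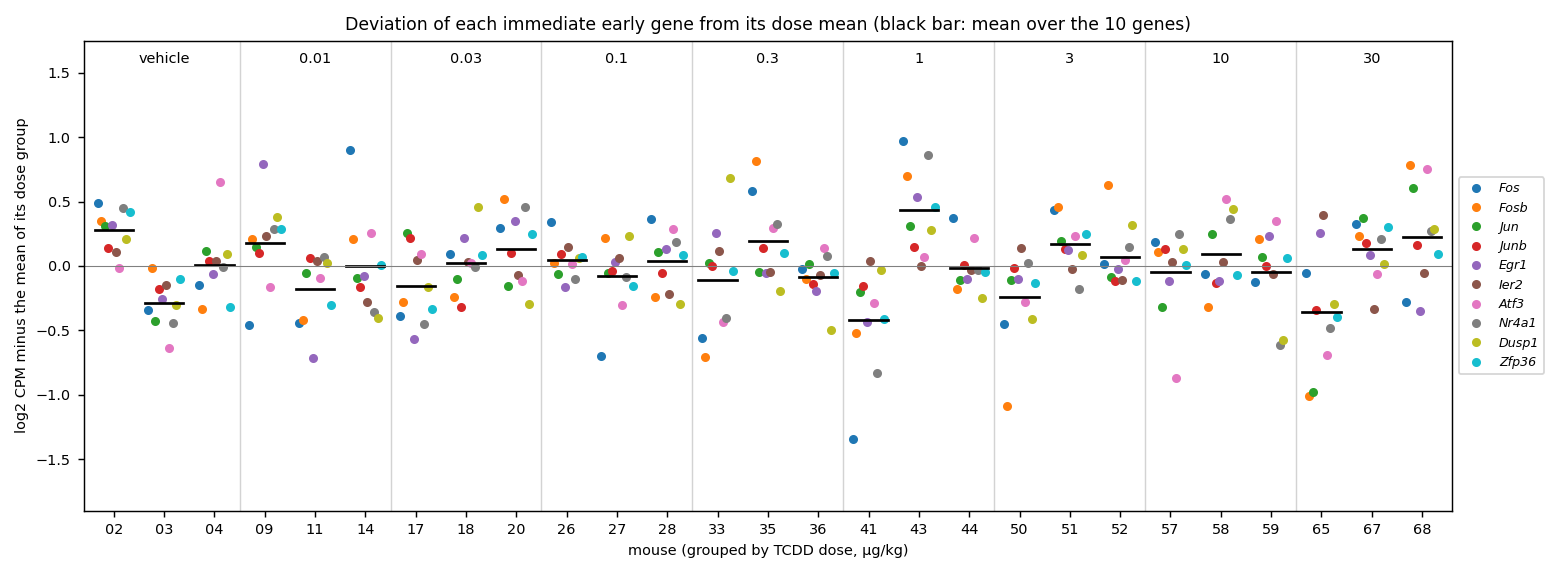
Deviation of each of the 10 genes from the mean of its dose group, in log2 CPM, for each mouse, with mice grouped by TCDD dose along the horizontal axis. Coloured points are genes and black bars their mean, which runs from -0.417 in mouse 41 to 0.433 in mouse 43, both at 1 µg/kg.

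The promoters of *Fos*, *Fosb*, *Nr4a1* and *Zfp36*, which correlated at 0.50 to 0.65 with each other, are shown beside that of *Dusp1*, whose values against these 4 were -0.14 to 0.32, so that shared short motifs can be compared. RefSeq promoter entries (GRCm38.p6) matched 8 of the 10 genes, all but *Egr1* and *Ier2*. For these 8 the 250 bases before the start site were searched on both strands, and nothing farther out was searched. The core letters of the cAMP response element (CRE), TGACG, were in 6 of the 8 and in 17.9% of 27025 promoters. The full CRE, TGACGTCA, which holds those letters on both strands, was in *Dusp1* alone (1.62% of promoters). Among the 8, a CArG box, the letters bound by SRF, was within these bases in *Zfp36* alone (1.4%). *Egr1*, the called gene, could not be searched. The AP-1 site, TGACTCA or TGAGTCA, was in 0 of the 8 (4.43%), and GCGTG, the core of the AhR response element, was in 5 (28.2%). The stretches from 150 to 31 bases before the start site are given 5′ to 3′ on the strand of the gene. Capitals mark the CRE core letters in *Fos* (chr12:85473740-85473859, plus strand), *Fosb* (chr7:19310076-19310195, minus strand), *Nr4a1* (chr15:101266696-101266815, plus strand) and *Dusp1* (chr17:26508503-26508622, minus strand), and the CArG box in *Zfp36* (chr7:28379259-28379378, minus strand).
Fos: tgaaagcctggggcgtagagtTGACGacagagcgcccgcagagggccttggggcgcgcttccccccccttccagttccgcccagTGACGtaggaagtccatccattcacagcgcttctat
Fosb: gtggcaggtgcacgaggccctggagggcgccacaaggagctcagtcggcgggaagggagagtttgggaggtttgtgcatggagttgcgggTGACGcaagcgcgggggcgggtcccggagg
Nr4a1: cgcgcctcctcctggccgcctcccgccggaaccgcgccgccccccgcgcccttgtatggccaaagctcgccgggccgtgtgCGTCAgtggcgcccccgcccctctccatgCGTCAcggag
Zfp36: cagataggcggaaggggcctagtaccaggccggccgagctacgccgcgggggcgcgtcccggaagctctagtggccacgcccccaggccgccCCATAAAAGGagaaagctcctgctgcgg
Dusp1: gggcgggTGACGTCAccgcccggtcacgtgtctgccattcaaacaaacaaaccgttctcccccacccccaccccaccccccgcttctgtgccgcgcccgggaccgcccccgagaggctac

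In *Fos* the nearer match lay 66 to 62 bases before the start, in *Fosb* 60 to 56 and in *Nr4a1* 69 to 65 with another at 40 to 36. In *Dusp1* the full CRE lay farther out, at 143 to 136. A match of letters is a description and binding was not measured.

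Of 42 other early response genes listed with the 10, 40 were tested. At 30 µg/kg 4 were called higher and 4 lower, 8 of 40 against 9.4% of all genes, and at 10 µg/kg 6 of 40 against 2.53%. The list's median log2 fold change at 30 µg/kg was 0.08, beside 0.019 over all genes tested. The MAP kinase feedback phosphatase *Dusp6* fell most, from 206 ± 45.4 CPM in vehicle mice to 31.9 ± 5.58 CPM (SD, n = 3, log2 fold change -2.69 ± 0.29 SE, edgeR adjusted p = 2.05e-06), and it was called at every dose from 1 µg/kg. *Dusp5*, another MAP kinase phosphatase, fell by 1.13 on the log2 scale (adjusted p = 0.00304), *Ier5* by 1.30 (adjusted p = 0.000848) and *Socs3*, an inhibitor of cytokine signalling, by 0.88 (adjusted p = 0.0126). The polo-like kinase *Plk2* rose by 1.55 (adjusted p = 0.000294), the clock gene *Per1* by 1.70 (adjusted p = 0.000433), the kinase *Sgk1* by 1.36 (adjusted p = 0.0292) and *Csrnp1* by 0.84 (adjusted p = 0.017). *Plk3* was called at 10 µg/kg only, at 1.18 (adjusted p = 0.0221). *Sgk1* lost its call without any 1 of 5 of the 6 mice, as did *Plk3* without vehicle mouse 02 or 03 or without mouse 58 or 59. *Csrnp1* lost it without vehicle mouse 03 or 04, and *Socs3* without vehicle mouse 02 or mouse 68. With index use in the fit *Ier5*, *Dusp6* and *Plk2* kept their calls at 30 µg/kg, and with the clock score none of these 8 genes did. Among the lost calls, with index use *Dusp5* was at -1.07, *Csrnp1* at 1.07 and *Socs3* at -0.79, and with the clock score *Dusp6* was at -2.01, *Socs3* at -1.48 and *Sgk1* at 1.43 on the log2 scale.

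Of 16 upstream regulators (SRF and its partners, CREB and MAP kinases among them), 1 was called at 30 µg/kg, against 9.4% of all genes tested. *Egfr*, the receptor for EGF-like ligands, fell from 60.6 ± 8.61 CPM in vehicle mice to 40.3 ± 10.2 CPM (SD, n = 3, log2 fold change -0.59 ± 0.15 SE, edgeR adjusted p = 0.00784). Its fold of 1.51 was just past the minimum, and it fell under that minimum without vehicle mouse 02, vehicle mouse 04 or mouse 65. The call was also lost with index use in the fit, at -0.80 (adjusted p = 0.116), and with the clock score, at -0.24 (adjusted p = 0.805).

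The genes most like the mean of the 10 over the 27 mice, relative to dose, were *Pdlim2* and *Hbegf* (r = 0.79 each), *Myzap* (0.76), *Egfr* and *Tradd* (0.75 each) and *Nfkbia* (0.74), followed by *Gm17382*, *Chmp5* and *Krt20* (0.73 each) and *Casp8* (0.72). *Hbegf*, which encodes a ligand of the EGF receptor, averaged 37.0 ± 9.62 CPM in vehicle mice, against 16.1 ± 2.52 CPM at the highest dose (SD, n = 3). It was called lower, at a log2 fold change of -1.20 ± 0.41 (SE, edgeR adjusted p = 0.0442), and lost the call without any 1 of 5 of the 6 mice and with the clock score in the fit, where it was at -1.59 (adjusted p = 0.551). With index use in the fit it was called at -3.11 (adjusted p = 0.0121). *Krt20*, a marker of the villus epithelium, averaged 1700 ± 110 and 1690 ± 500 CPM in these 2 groups (adjusted p = 0.981).

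Core clock genes moved with dose in the same mice. The clock score, the mean log2 CPM of *Arntl*, *Npas2* and *Clock* minus that of 7 genes that peak in the opposite phase, was 4.08 to 4.52 in the vehicle group, against -1.29 to -0.69 at 30 µg/kg. Of the 10 clock genes 7 were called higher and 2 lower at 30 µg/kg, against 9.4% of all genes tested in either direction. *Arntl* fell by 2.60 on the log2 scale (edgeR adjusted p = 2.17e-05). The score fell between 0.3 and 1 µg/kg, from 2.27 to 3.43 down to -0.33 to 1.08. Mouse 14 at 0.01 µg/kg stood apart at 0.14, against 4.09 and 3.94 in its group, and it had the highest *Fos* of that group (161 against 62.7 and 63.4 CPM), whereas its *Egr1*, at 25.5 CPM, lay within the vehicle range. Relative to dose, the mean deviation of the 10 genes correlated at 0.15 (Pearson) and 0.17 (Spearman) with the clock score over 27 mice. Mouse 14, whose mean deviation was 0.0, had the largest departure of the score from its group, so it weighs heavily in the Pearson value. A relation of the 10 genes to the clock was not tested. At 0.3 µg/kg the score was already below every vehicle mouse. From 3 to 30 µg/kg the groups overlapped, at -0.81 to -0.02, -1.20 to -0.31 and -1.29 to -0.69. All mice from 1 µg/kg upward had low scores, so against vehicle the score and these doses cannot be told apart.

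**Figure D4:**
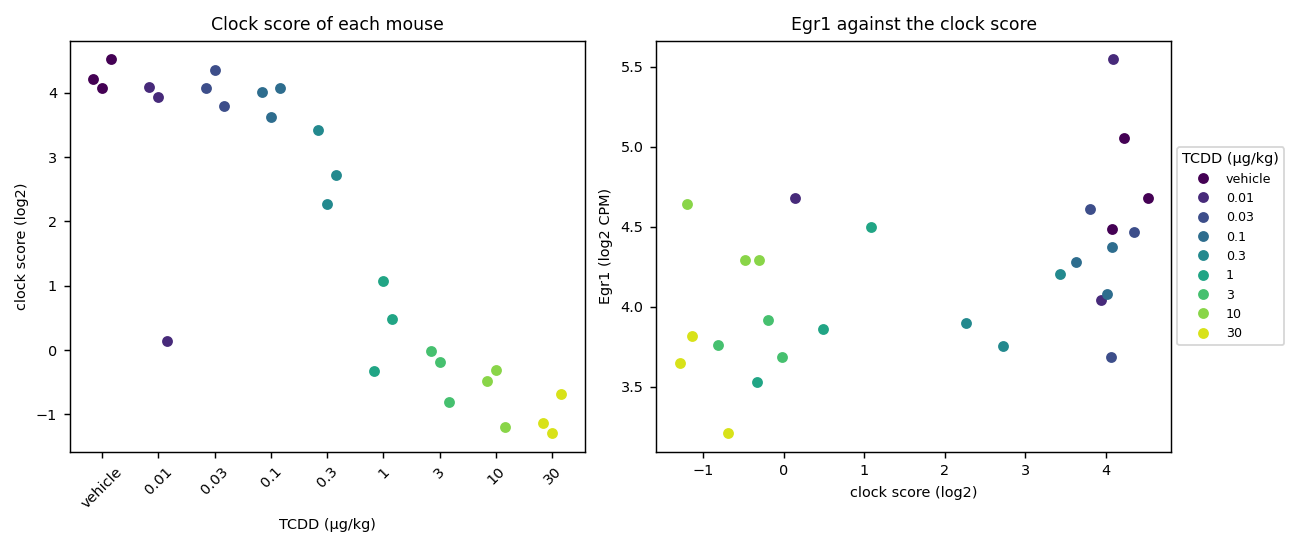
Left, clock score of each mouse in log2 units against TCDD dose on an ordered axis. Right, *Egr1* in log2 CPM against the clock score, coloured by dose. The vehicle mice sit at 4.08 to 4.52 and the 30 µg/kg mice at -1.29 to -0.69, with mouse 14 at 0.01 µg/kg at 0.14.

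The genes have different exposure to errors of counting. *Jun* and *Zfp36* each overlap a gene on the opposite strand that is annotated as antisense, *Junb* overlaps *Prdx2* and *Dusp1* overlaps *Ergic1*. The strand setting of the counting is not given in the sources used here, and without strand, reads of overlapping genes cannot be told apart. *Egr1*, *Fos*, *Fosb*, *Ier2*, *Atf3* and *Nr4a1* overlap no other annotated exon.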

How the data were processed

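Ileal RNA-Seq was available for 27 mice. Reads were quality checked with FastQC 0.11.3 and trimmed with Trimmomatic 0.33, aligned to GRCm38 with TopHat2 2.1.0, converted with SAMtools 1.2.0 and counted per Ensembl gene with HTSeq 0.6.1 (versions per the submitters' processing notes), and the authors deposited raw counts with no normalization. The counting options are not given in the sources used here. Between 44.48% and 49.52% of uniquely placed reads matched no gene and were left out of library sizes, which were 12.26 to 17.14 M.

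The analysis used edgeR 4.0.16 under R 4.3.3. Low counts were filtered by filterByExpr (minimum count 10, minimum total 15), normalized by TMM and fitted by quasi-likelihood with 9 groups, no covariate and all 27 mice. Calls needed an adjusted p of at most 0.05 (Benjamini-Hochberg over all genes tested) and a 1.5-fold change. This adjusted p takes the place of the study's posterior probability, which was not recomputed. Slopes used the rank of the dose. CPM values are TMM-scaled, log2 CPM used a prior count of 2, and standard errors are the log2 fold change over the root of F. Groups came from the labels, with each mouse as an independent sample. Exon lengths, overlaps and symbols came from GENCODE M21, and 2 older symbols of each list were matched through RefSeq synonyms. Index use is not a recorded label. Mice that shared a library index were numbered as first or second use in order of mouse number, which rose with dose. No label says whether the uses were separate batches. The fit was tested on simulated counts. No 2 mice of a group agreed within sampling noise (chi-square per degree of freedom at least 6.994). The largest values, 74.26 and 45.51, were those of mouse 65 with the other 2 mice at 30 µg/kg. No other pair exceeded 22.55.

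All 10 genes are described. Of the other early response and upstream lists, those called at any dose are named, with the 10 genes most alike within dose, and at most 3 genes of a clock or marker list unless a list is spelled out as a definition. The genes and lists were chosen with earlier results of these data known. Alternatives were DESeq2 1.42.0, upper-quartile or library-size scaling, other filters, no minimum fold, only the 6 mice compared, index use or clock score as a covariate, each mouse left out, and trends within each index use, the last added after seeing the data.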

Additional observations from a re-analysis of the deposited data

How the results depend on the processing

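The counts of called members changed as follows. With every gene of at least 1 count tested there was 1 call at 0.3 µg/kg and 1 at 1 µg/kg (*Atf3*), 2 at 3 µg/kg and 2 at 30 µg/kg (*Egr1* and *Atf3*), and 3 genes differed among groups. With DESeq2 there was 1 at 3 µg/kg and 2 genes differed among groups, and with only the 6 mice compared there was 1 at 3 µg/kg. Scaling by library size gave 3 at 30 µg/kg (*Egr1*, *Atf3* and *Nr4a1*). With the clock score in the fit there were 0 at 30 µg/kg, 0 differing among groups and 0 trends. With index use in the fit, 0 differed among groups and 1 trend passed (*Egr1*), and 0 trends passed within the first or within the second index use. Leaving out 1 mouse gave 1 to 3 calls at 30 µg/kg (3 without vehicle mouse 03, 2 without mouse 68), 0 to 4 genes differing among groups, 2 to 3 trends and 0 to 0 at the other doses. The clock score and index use leave few mice to separate them from dose, and the causes of the other changes were not tested.

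Signs at 30 µg/kg turned with the clock score in the fit for *Jun* (0.26), *Ier2* (0.23), *Nr4a1* (0.05), *Ier5* (0.49) and *Csrnp1* (-0.16), as did *Ier2* at 3 µg/kg (0.11). With index use they turned for *Junb* (-0.05), *Zfp36* (-0.62) and *Sgk1* (-0.77). *Zfp36* was also -0.12 scaled by library size, -0.01 with every gene of at least 1 count, and -0.14 to 0.26 with 1 mouse left out. With 1 mouse left out, *Fosb* ranged from -0.75 to 0.07 and *Jun* from -0.50 to 0.12. Of 652 recomputed values, 190 were counts, of which 164 were within 1.5 times the reported count and 26 were not. Many of the 164 were 0 against 0 at doses with no call. A count could also stay the same while the gene changed, as at 30 µg/kg with index use, where *Nr4a1* was called in place of *Egr1*. Among the other values, 386 kept their sign and call status, 51 lost a call, 8 gained 1 and 17 changed sign. *Fosb* has no value with at least 10 counts in every mouse. No paired analysis was possible because mouse numbers are unique to each mouse. Depth limits *Fosb* and *Nr4a1*, and 3 mice per group limit all 10 genes.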
